A study of Xenopus laevis and Xenopus tropicalis with 12 samples.

Results

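Zona pellucida (ZP) glycoproteins are the proteins of the egg coat, called the vitelline envelope in frogs. The gene models annotated zp2, zp3 and zp4, matched by symbol, are 3 of the 28165 models counted in the series. These members were chosen with earlier results of these data known. RNA was measured in oocytes cut by hand into an animal hemisphere, the pigmented side with the nucleus, and a vegetal hemisphere, the yolk-rich side. For X. laevis there were 8 libraries of stage VI oocytes, 4 of each hemisphere, from 2 females called A and B. Each female contributed 2 library pairs, labelled t1 and t2 in the titles and called batches here (A_t1 and A_t2 or B_t1 and B_t2). The titles do not say whether t1 and t2 were separate oocyte batches or repeats of the same RNA. For X. tropicalis there were 4 libraries of full-grown oocytes, 2 of each hemisphere, from females 1 and 2. The labels name no treatment for any library, and the sources used here do not give the strains, the ages or the number of oocytes per library.

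ZP proteins are made by the growing oocyte, enter the endoplasmic reticulum (ER), are glycosylated, and are cut near their C terminus by furin-type convertases before they assemble outside the cell through their shared ZP module. The coat binds sperm and is remodelled after fertilization so that no further sperm enter. The Xenopus proteins have older names, ZPA for zp2, ZPC for zp3 and ZPB for zp4. Counts of both species are listed on 1 shared set of models, whose IDs begin with Xetrov, so the L and S copies of an X. laevis gene were not counted apart. In a RefSeq gene table of X. laevis assembly v10.1, zp4 had 2 genes, zp4.L and zp4.S, while zp2 had 1 gene (zp2.L) and ZPC had 1 gene, matched by the synonym xlzpc and lying on an S chromosome. On that chromosome 4 protein-coding genes lay between the ZPC gene and zpy1.S, another egg coat gene.

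Total counts lay between 30416352 and 45235154 in X. laevis and between 7772801 and 28392285 in X. tropicalis, and each member had at least 1975 counts in every library. Levels are given in CPM, each count scaled to the total of its library, with TMM-adjusted totals set separately for each species. A CPM is a share of the counted reads of a library, so it does not give the amount of RNA per hemisphere. In such bulk libraries the RNA of the oocyte and that of any other cells present cannot be told apart. Models were called at an adjusted p under 0.05 (edgeR quasi-likelihood test with the batch or female as a block, Benjamini-Hochberg over all models tested). By this rule 27.7% of 14517 models were called between X. laevis hemispheres (13.2% vegetal, 14.4% animal) and 33.0% of 12916 between X. tropicalis hemispheres (15.6% vegetal, 17.3% animal). Against that background, zp2 and zp4 were called vegetal in both species and zp3 in X. tropicalis. All calls of the members were thus in the vegetal direction, and the members' median log2 difference was 0.49 (X. laevis) and 0.98 (X. tropicalis), beside -0.01 over all models tested in each species. With a fold of at least 2 required as well, 3.01% of all models were vegetal in X. laevis, with 0 of the 3 members among them, and 3.29% in X. tropicalis, where zp3 was the 1 member.

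The zp2 protein (ZPA) takes part in sperm binding in X. laevis and is cleaved when the coat is remodelled at fertilization. In X. laevis animal libraries zp2 (model Xetrov72004818) stood at 299 (A_t1), 256 (A_t2), 295 (B_t1) and 279 CPM (B_t2). In the vegetal libraries of the same batches it stood at 447, 410.1, 393 and 475 CPM. Every vegetal library was above every animal library. How many of all models separate in this way was not counted, here or for the genes below. The means were 282 ± 19.8 and 431 ± 37.0 CPM (SD, n = 4), a log2 vegetal minus animal difference of 0.61 ± 0.08 (SE) or 1.53-fold (edgeR adjusted p = 0.00146). By batch the log2 difference was 0.58 (A_t1), 0.68 (A_t2), 0.41 (B_t1) and 0.77 (B_t2).

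X. tropicalis zp2 stood at 379 (female 1) and 378 CPM (female 2) in animal libraries and at 758 and 739.6 CPM in vegetal libraries. Both vegetal libraries were far above the animal ones. The log2 difference was 0.98 ± 0.06 (SE), or 1.98-fold (edgeR adjusted p = 9.95e-35, with 1 residual degree of freedom and a prior of 162, so that the spread behind it came mostly from the other genes). Without the female as a block the adjusted p was 0.029. Of all models tested, 6.34% had a larger log2 difference than zp2 in X. laevis and 3.43% in X. tropicalis.

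The zp3 protein (ZPC) is the member whose mouse counterpart was first described as a sperm receptor, and in Xenopus it is trimmed by an oviduct protease as the egg passes down the tract. X. laevis zp3 (Xetrov72003842) stood at 169 (A_t1), 157 (A_t2), 225 (B_t1) and 239.8 CPM (B_t2) in animal libraries. The vegetal values were 159, 184, 332 and 253 CPM. The hemispheres overlapped, and the clearer split was between females. All 4 libraries of female A (157 to 184 CPM) were below all 4 of female B (225 to 332 CPM). The share of all models that split by female in this way was not counted. The log2 vegetal minus animal difference was 0.19 ± 0.11 with a 95% interval from -0.06 to 0.45 (edgeR adjusted p = 0.219). It was positive in 3 of 4 batches, with -0.09 (A_t1), 0.23 (A_t2), 0.56 (B_t1) and 0.08 (B_t2). With batches A_t2 and B_t1 alone it was 0.41, and with A_t1 and B_t2 alone 0.01. These batches were chosen after seeing the data, so the split is no test.

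In X. tropicalis the same model had the largest vegetal difference of the members. Its animal levels were 163 (female 1) and 144 CPM (female 2), and its vegetal levels 452 and 352 CPM. Both females were higher in the vegetal library, by log2 values of 1.47 and 1.29. The fitted log2 difference was 1.38 ± 0.06 (SE), or 2.60-fold (edgeR adjusted p = 1.04e-48, and 0.0403 without the block), and 2.36% of tested models had a larger one. With 1 library left out and no block, zp3 kept its call in 3 of 4 cases and had an adjusted p of 0.0868 (log2 1.21) without the vegetal library of female 1. There zp2 had an adjusted p of 0.171 (0.98), and 0.16 (1.00) without the vegetal library of female 2.

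**Figure D1:**
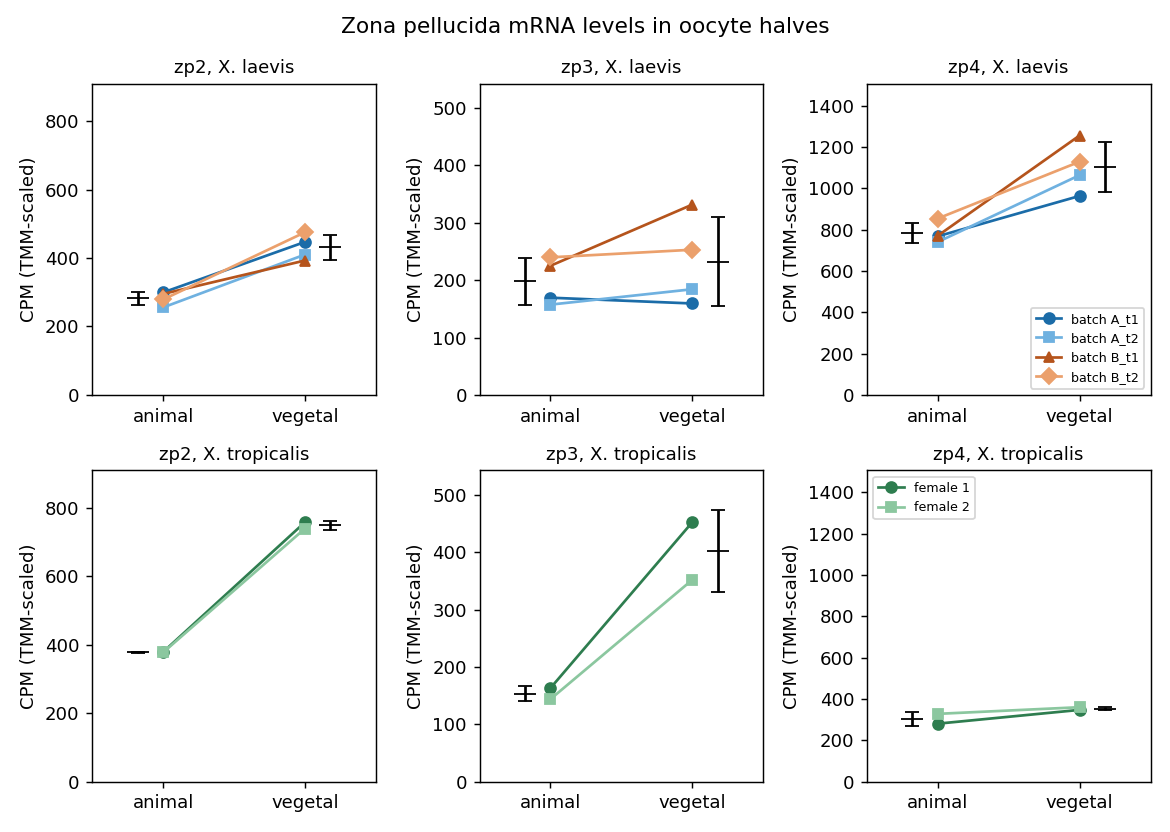
Levels of zp2, zp3 and zp4 in CPM (y axis, from 0) in animal and vegetal libraries. Lines join the libraries of 1 batch (X. laevis, top) or 1 female (X. tropicalis, bottom), and bars beside them give the mean and SD of each group (n = 4 or 2). Every zp2 line slopes up, and zp3 slopes up steeply in X. tropicalis and separates females A and B in X. laevis. The zp4 CPM values are higher in X. laevis, where its L and S copies were not counted apart, and levels were not tested between species.

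The zp4 protein (ZPB) is a further structural subunit of the coat. X. laevis zp4 (Xetrov72038735) was the most abundant of the members by CPM, ranking between 45 and 115 among all models in the 8 libraries. It stood at 768 (A_t1), 740.4 (A_t2), 771 (B_t1) and 854 CPM (B_t2) in animal libraries and at 963, 1064, 1256 and 1129 CPM in vegetal libraries. No vegetal library was as low as any animal library, a separation whose share over all models was not counted. The means were 783 ± 49.1 and 1103 ± 123 CPM (SD, n = 4), a log2 difference of 0.49 ± 0.08 or 1.40-fold (edgeR adjusted p = 0.00478). By batch it was 0.33 (A_t1), 0.52 (A_t2), 0.70 (B_t1) and 0.40 (B_t2). Within female A alone the log2 difference was 0.43 (edgeR adjusted p = 0.0507) and within female B 0.56 (adjusted p = 0.0193).

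X. tropicalis zp4 stood at 281 (female 1) and 328 CPM (female 2) in animal libraries and at 347 and 360.5 CPM in vegetal libraries. The vegetal libraries were the higher ones in both females, though the gap between the groups was smaller than that between the animal libraries. The log2 difference was 0.22 ± 0.06 or 1.16-fold (edgeR adjusted p = 0.00242). That call rested on the block, with an adjusted p of 0.778 without it. The X. tropicalis minus X. laevis contrast of the zp4 hemisphere difference was -0.26 ± 0.13 on the log2 scale (95% interval -0.56 to 0.04) and did not pass (edgeR adjusted p = 0.235).

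Whether the hemisphere difference itself differed between species was tested on the 11688 models that passed the filter in both, of which 12.5% were called, 5.77% as more vegetal in X. tropicalis and 6.70% as more vegetal in X. laevis. The zp3 difference was more vegetal in X. tropicalis by a log2 value of 1.19 ± 0.17 (95% interval 0.80 to 1.58, edgeR adjusted p = 0.00311). The model treats both species as equally variable, and without the blocks the adjusted p was 0.139. For zp2 the X. tropicalis difference was larger by 0.38 ± 0.13 (95% interval 0.08 to 0.68), which did not pass after adjustment (adjusted p = 0.0975). Leaving out any 1 X. laevis batch kept the zp3 value between 1.10 and 1.31, with an adjusted p of at most 0.0142.

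**Figure D2:**
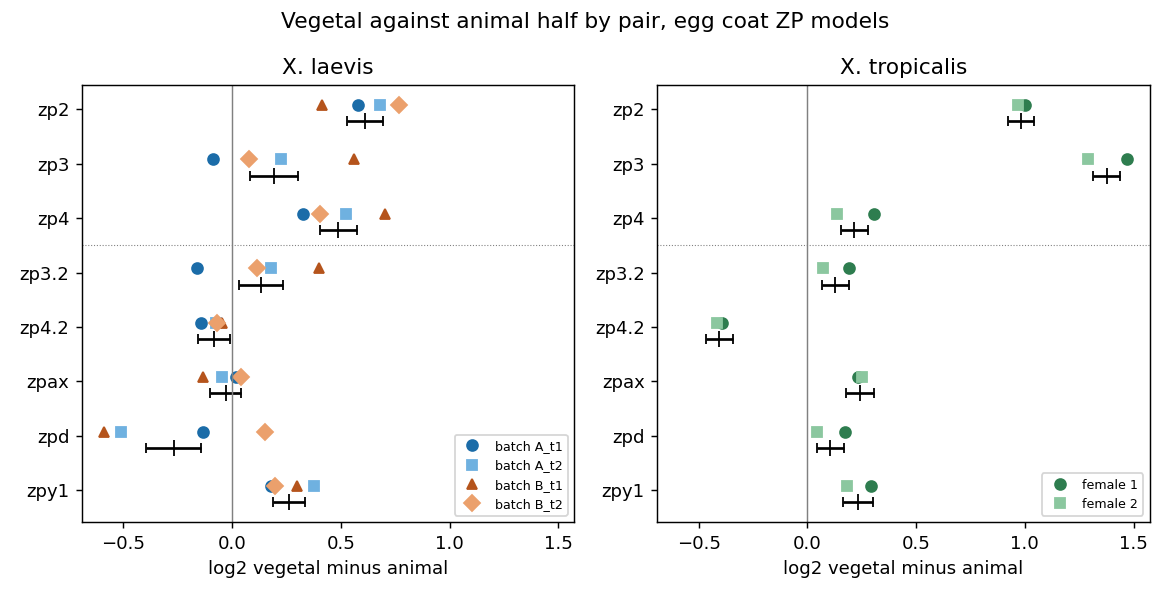
Log2 vegetal minus animal difference (x axis) for each batch or female (coloured points) of 8 egg coat ZP models, with the fitted value and its SE in black. Members are above the dotted line. All zp2 and zp4 points are above 0 in both species, whereas zp3 lies between -0.09 and 0.56 in X. laevis and at 1.29 and 1.47 in X. tropicalis.

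The batches of X. laevis were not in the same order for all members. For zp3 and zp4 alike, A_t1 had the lowest vegetal minus animal value and B_t1 the highest, with B_t2 and A_t2 between them. For zp2, B_t1 had the lowest value and B_t2 the highest. Whether the hemisphere difference depended on the female was tested over 14517 models, of which 0 were called with edgeR (254 at an unadjusted p under 0.05, and 4 with DESeq2). The log2 difference of female A exceeded that of B by 0.04 ± 0.20 for zp2 and was below it for zp3 (-0.25 ± 0.23) and zp4 (-0.13 ± 0.20).

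Levels were then compared between X. laevis females, with the counts of both hemispheres summed per batch and 2 batches against 2. This compares these 2 animals only, since batches of 1 female are not separate animals. By this test 29.4% of 15782 models were called, 13.2% higher in A and 16.2% higher in B. Of the members, zp3 was lower in female A, at a mean of 168 CPM over 4 libraries against 262 CPM in female B, a log2 difference of -0.63 ± 0.12 (edgeR adjusted p = 0.00107). It was also called in animal libraries alone (-0.50) and in vegetal libraries alone (-0.75). The means of zp2 were 353 and 360.5 CPM with a log2 difference of -0.01 ± 0.12 (95% interval -0.26 to 0.24), and those of zp4 884 and 1002 CPM with -0.17 ± 0.11 (95% interval -0.42 to 0.08). In X. tropicalis, with 1 pair per female and no test, zp3 averaged 308 CPM in female 1 and 248 CPM in female 2.

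The summed level of the members ran from 1153 to 1373 CPM in X. laevis animal libraries and from 1569.7 to 1980.3 CPM in vegetal ones. In X. tropicalis it ran from 823 to 849.6 CPM in animal and from 1452 to 1558 CPM in vegetal libraries. The groups did not overlap in either species, with only 2 libraries per group in X. tropicalis. How many of all models separate in this way was not counted. Within that sum, zp4 held 59.7% to 64.2% of the reads in every X. laevis library, zp2 19.8% to 28.5% and zp3 10.2% to 17.5%. These are shares of reads not corrected for transcript length, and in X. laevis the L and S copies of zp4 were not counted apart. In X. tropicalis, zp2 held the largest share, 44.4% to 50.9%. There zp3 took 19.8% and 16.9% in animal libraries against 29.0% and 24.2% in vegetal libraries, while zp4 went from 34.1% and 38.6% to 22.3% and 24.8%. Counting error gave 95% Wilson intervals at most 0.953 percentage points wide in X. laevis and 1.96 in X. tropicalis, and covers neither library preparation nor the use of 1 model set for both species.

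**Figure D3:**
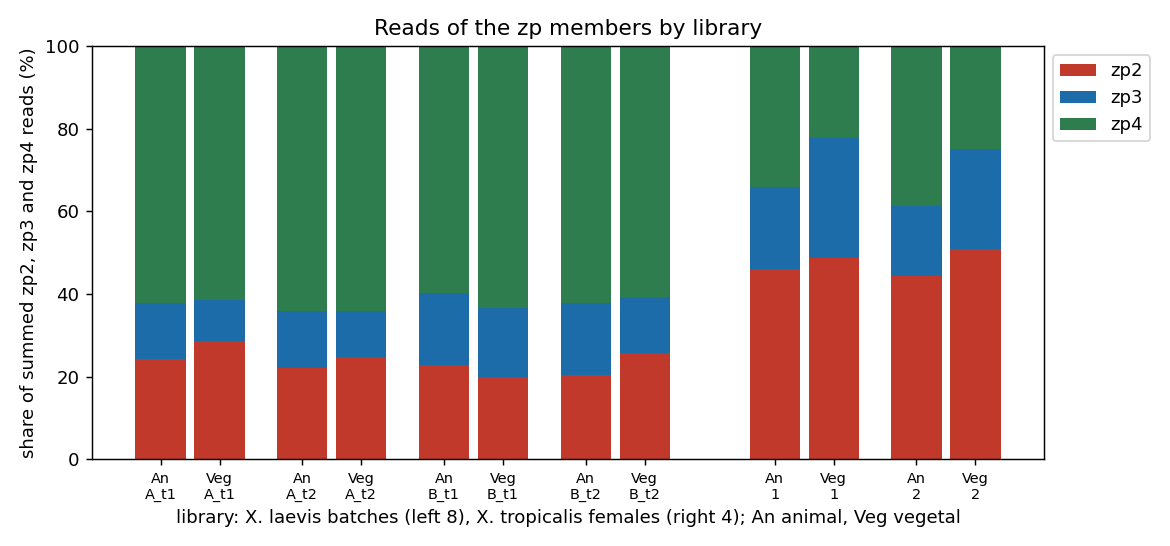
Share of the summed zp2, zp3 and zp4 reads (y axis, percent) in each library, with animal (An) and vegetal (Veg) libraries of a pair side by side. In X. laevis zp4 holds 59.7% to 64.2% in all 8 libraries, and in X. tropicalis the zp3 share is larger and the zp4 share smaller in each vegetal library.

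Across groups, the order of mean zp2 levels was X. laevis animal (282 CPM), X. tropicalis animal (378), X. laevis vegetal (431) and X. tropicalis vegetal (749). For zp3 it was X. tropicalis animal (153), X. laevis animal (198), X. laevis vegetal (232) and X. tropicalis vegetal (402), and the first 3 of these groups overlapped in range. For zp4 it was X. tropicalis animal (305) and vegetal (354), then X. laevis animal (783) and vegetal (1103). Levels of the species are set side by side without a test, because the libraries were scaled separately and 1 model set served both species.

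**Figure D4:**
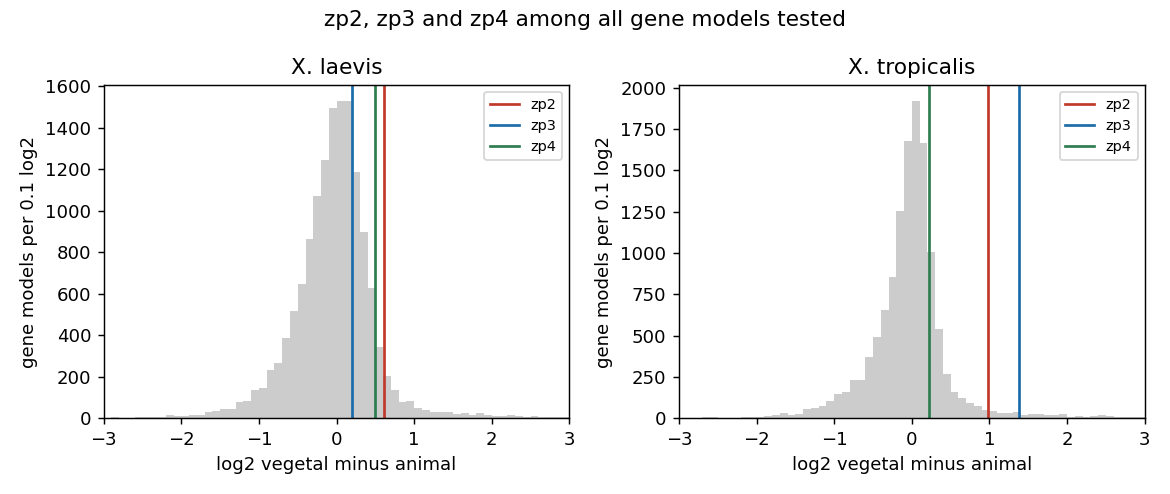
Distribution of fitted log2 vegetal minus animal differences over all models tested (x axis, from -3 to 3; y axis, models per 0.1 log2), with lines at zp2, zp3 and zp4. The members lie above 0 in both species, zp2 at 0.61 and 0.98, zp3 at 0.19 and 1.38, and zp4 at 0.49 and 0.22. In X. laevis zp3 lies within the broad peak near 0 and was not called.

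Other ZP genes of the egg coat were expressed in every library too. Besides zp4.2, zp3.2, zpax, zpd and zpy1, the annotation held zpld1, a ZP domain gene outside the coat, which stayed at or below 0.445 CPM. In X. laevis zpy1 was the single one called, at 283 ± 33.9 CPM on the animal side and 338 ± 34.8 CPM on the vegetal side (SD, n = 4; log2 difference 0.26 ± 0.07, edgeR adjusted p = 0.0337, and 0.168 without the block, 0.158 without batch A_t2 and 0.101 without B_t2). The others in X. laevis were zp3.2 (0.13 ± 0.10), zp4.2 (-0.08 ± 0.07), zpax (-0.03 ± 0.07) and zpd (-0.27 ± 0.13). Of all models tested between X. laevis hemispheres, 27.7% were called. The zpd animal levels were 279 (A_t1), 231 (A_t2), 239 (B_t1) and 231 CPM (B_t2), and the vegetal levels 255, 162, 159 and 257 CPM. The log2 difference rested on batches A_t2 (-0.51) and B_t1 (-0.59) and was -0.13 and 0.15 in A_t1 and B_t2. With A_t2 and B_t1 alone, batches chosen after seeing the data, zpd was -0.53, which is no test. Over all 4 batches zpd was not called (edgeR adjusted p = 0.15).

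In X. tropicalis zp4.2 stood at 243 (female 1) and 197 CPM (female 2) in animal libraries and at 185 and 148 CPM in vegetal ones. Each animal library was above both vegetal libraries, the opposite side from zp4, with means of 220.3 ± 32.7 and 167 ± 26.4 CPM (SD, n = 2; log2 difference -0.40 ± 0.06, edgeR adjusted p = 1.38e-08). There zpax (0.24 ± 0.06, adjusted p = 0.000935) and zpy1 (0.23 ± 0.07, adjusted p = 0.0046) were vegetal, and zp3.2 (0.13 ± 0.06) and zpd (0.11 ± 0.06) were not called. Without the block none of these 3 calls held, with adjusted p from 0.586 to 0.875, and with DESeq2 zpax (0.0517) and zpy1 (0.149) were not called. Of all models tested between X. tropicalis hemispheres, 33.0% were called with the block. None of the 5 coat genes was called for a hemisphere difference that differed between species, beside 12.5% of all models tested for it. Levels of the 5 were not tested between species. The summed level of those 5 ran from 828 to 1001 CPM (animal) and from 830.4 to 1068 CPM (vegetal) in X. laevis, and from 1121 to 1248 and 1136 to 1339.6 CPM in X. tropicalis. Those ranges overlapped in both species, while the summed ranges of the members did not, a contrast that was not tested. In X. tropicalis this sum joins genes called in opposite directions, zp4.2 as animal and zpax and zpy1 as vegetal. Of the members taken singly, zp3 overlapped between hemispheres in X. laevis. How many other sets of models separate by their sum was not counted. Reads of near-identical paralogs can be shared, so zp3 with zp3.2 and zp4 with zp4.2 carry that uncertainty.

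The 3 genes nearest to each member were named by the root mean square distance between log2 vegetal minus animal values, over 4 X. laevis and 2 X. tropicalis pairs and 7304 candidate models. For zp4 these were the splicing factor rbm22 (0.04), the ER lectin erlec1 (0.05) and the co-chaperone dnajc17 (0.06). For zp2 they were zfyve21 (0.09), bnipl (0.16) and the actin regulator wasf1 (0.16). For zp3 they were the dUTPase dut (0.14), znf598 (0.23) and fam83d (0.23). The same distance was 0.50 between zp2 and either of the others and 0.72 between zp3 and zp4. These are not comparable with the values above, which are the smallest of all candidates.

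Genes listed for a possible role in the coat or in ZP gene control were read against the same backgrounds. These were 13.2% vegetal and 14.4% animal of all models in X. laevis, and 15.6% and 17.3% in X. tropicalis. The coat list held general convertases and other enzymes beside coat proteases and cortical granule lectins. Of these, astl and itln1 were at 0 in all X. laevis libraries. Of 10 tested models of this list in X. laevis, 1 was called, the furin-type convertase pcsk6. Its level was 17.8 ± 6.63 CPM on the animal side and 282 ± 105 CPM on the vegetal side (SD, n = 4). The log2 difference was 3.99 ± 0.13 (edgeR adjusted p = 2.65e-06). Whether pcsk6 acts on the coat was not tested. In X. tropicalis 2 of 8 were vegetal, pcsk6 (4.53 ± 0.09) and pcsk5 (0.37 ± 0.10), and pcsk7 was animal (-0.67 ± 0.20). Of these 3, DESeq2 called 1, pcsk6, with an adjusted p of 0.109 for pcsk5 and 0.234 for pcsk7. Without the block pcsk6 was again the 1 called (adjusted p = 0.0039, edgeR), with 0.545 for pcsk5 and 0.921 for pcsk7. Of 12 tested transcription factors and oocyte regulators, 2 were vegetal and 4 animal in X. laevis, led by the oocyte ligand bmp15 (1.11 ± 0.10), tcf12 (-1.01 ± 0.11), taf4b (-0.74 ± 0.09) and lhx8 (-0.65 ± 0.09, edgeR adjusted p = 0.0689 without the block). In X. tropicalis 4 were vegetal, including bmp15 (0.89 ± 0.06) and lhx8 (0.40 ± 0.11), and 3 animal, including tcf3 (-0.64 ± 0.13) and tcf12 (-0.48 ± 0.11). DESeq2 called 1 of these 7, bmp15, with an adjusted p of 0.188 for lhx8, 0.0545 for tcf3 and 0.0697 for tcf12. Without the block the edgeR adjusted p was 0.0595 for bmp15, 0.942 for lhx8, 0.794 for tcf3 and 0.714 for tcf12. Both females had the same sign for pcsk7 and for lhx8. With no block, pcsk7 was 0.05 without the animal library of female 1 and lhx8 -0.05 without the vegetal library of female 2, contrasts into which differences in level between the females also enter. The ZP gene activator figla was not called in X. laevis (0.30 ± 0.12, adjusted p = 0.0979, edgeR) or in X. tropicalis (0.15 ± 0.06, adjusted p = 0.0614).

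Genes of ER entry, N-glycosylation and disulfide folding, the route that ZP proteins take, had calls in both directions in each species. In X. tropicalis the vegetal calls were the more numerous. In X. laevis 6 of 44 were vegetal and 7 animal, beside 13.2% and 14.4% of all models tested. In X. tropicalis 18 of 44 were vegetal and 8 animal, beside 15.6% and 17.3% of all models. DESeq2 called 16 of the 44 in X. laevis, beside 4416 of all 14517 models tested. In X. tropicalis it called 15 of the 44, beside 2108 of all 12916 models. The median log2 differences were 0.10 and 0.12. Examples in X. laevis were the mannosidase man2a1 (-2.01 ± 0.18), the translocon-associated ssr1 (-0.55 ± 0.07) and the disulfide isomerase pdia3 (0.42 ± 0.07). Examples in X. tropicalis were the glycosyltransferase mgat2 (-1.24 ± 0.07), srp68 (-1.14 ± 0.07), the oligosaccharyltransferase subunit rpn1 (0.96 ± 0.06) and the disulfide isomerase p4hb (0.62 ± 0.06). Without the block the edgeR adjusted p was 0.051 for pdia3, 0.0817 for rpn1 and 0.11 for p4hb. It was 0.0206 for mgat2 and 0.0285 for srp68, both animal in X. tropicalis. The counts of vegetal and animal calls in this list are not given without the block. Of the egg membrane proteins of sperm contact, 2 of 16 were vegetal and 1 animal in X. laevis, and 4 of 15 and 2 in X. tropicalis. The uroplakin upk3a was vegetal in both species (1.26 ± 0.12 and 0.28 ± 0.06, the latter with an edgeR adjusted p of 0.622 without the block), and the phospholipase plcg1 was animal in X. laevis (-0.49 ± 0.07). ZP domain genes outside the coat had 0 calls with edgeR or DESeq2 among 7 tested models in X. laevis and 1 in X. tropicalis, and 0 at an unadjusted p under 0.05.

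Oocyte markers were present in every library, with figla between 38.7 and 59.4 CPM in X. laevis and between 160.1 and 195 CPM in X. tropicalis. The edgeR calls of markers below stand beside 27.7% of all models called in X. laevis and 33.0% in X. tropicalis. Besides the ZP members, the oocyte markers bmp15 and gdf9 were called vegetal in both species with the block. For gdf9 the log2 differences were 0.45 ± 0.13 (X. laevis, edgeR adjusted p = 0.0386) and 0.30 ± 0.10 (X. tropicalis, 0.0166). The marker gtf3a was called vegetal in X. tropicalis (0.18 ± 0.06, edgeR adjusted p = 0.0225) and not called in X. laevis (-0.20 ± 0.10). Neither figla nor zar1 was called in any species. Each of 8 mRNAs known from the vegetal cortex was called vegetal in either species, among them grip2 (log2 difference 8.35 ± 0.16 and 6.90 ± 0.10). Summed follicle cell markers ran from 81.6 to 156 CPM in animal and from 296 to 368 CPM in vegetal X. laevis libraries. Most of that sum was the steroid hydroxylase cyp17a1 (117 ± 35.2 to 325 ± 29.2 CPM), the 1 called of 5 tested. The sum thus moved in the direction of zp2 and zp4, while the median log2 difference of the 5 was 0.12. Whether the cyp17a1 RNA came from follicle cells was not tested. The part of the follicle cell markers in the result was not tested in X. laevis either. In X. tropicalis the follicle markers summed to at most 2.71 CPM in any library, and 0 could be tested. There 6 of 15 were at 0 in all libraries, foxl2, fshr and cyp17a1 included. Blood and endothelial markers summed to at most 52.2 CPM in any library (1 vegetal and 1 animal of 8 tested in X. laevis, 0 of 3 in X. tropicalis, also at an unadjusted p under 0.05 and with DESeq2), and immune markers to at most 5.94 CPM (1 animal in each species, of 4 and 2 tested, csf1r and cd74, and 0 in either with DESeq2). Connective tissue markers also summed higher on the vegetal side, to 130.2 to 166 CPM in animal and 163 to 259 CPM in vegetal X. laevis libraries, which overlapped, and to 70.9 to 75.3 and 86.2 to 88.9 CPM in X. tropicalis, which did not. Of these, fn1 was called vegetal in both species, with an edgeR adjusted p without the block of 0.151 in X. laevis and 0.59 in X. tropicalis, and 0.0981 with DESeq2 in X. tropicalis. Liver markers summed to 91.5 to 100.4 CPM in animal and 108 to 127 CPM in vegetal X. laevis libraries, with 0 of 5 called by edgeR (1 at an unadjusted p under 0.05 and 1 by DESeq2), and to 49.1 to 61.8 and 27.5 to 30.9 CPM in X. tropicalis, where tf was animal (-0.93 ± 0.09, edgeR adjusted p = 0.123 without the block). The part of these markers in the ZP values was not tested.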

How the data were processed

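RNA was sequenced from animal and vegetal oocyte hemispheres (8 X. laevis and 4 X. tropicalis libraries). The deposited files hold raw read counts per gene model, not normalized by the authors. Bowtie2 2.1.0 is named in the submitters' processing notes, as are edgeR and DESeq. The genome build, the counting program and the strand setting: not given in the sources used here. Symbols came from the deposited annotation table, which gave 14513 of 28165 models a symbol.

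Tests used edgeR 4.0.16 under R 4.3.3 (filterByExpr, TMM, quasi-likelihood F test, Benjamini-Hochberg), with DESeq2 1.42.0 as an alternative, and figures with matplotlib 3.10.9. Standard errors and 95% intervals of log2 differences were derived from the F statistic. The prior count for log2 CPM was 2. The block was the label shared by an animal and a vegetal library, female with t1 or t2 (X. laevis) or female (X. tropicalis). After subtracting group means, Pearson's r across models within such a pair was 0.701 to 0.844 for X. laevis and 0.797 for X. tropicalis, and 0.755 to 0.833 across batches of the same female. Replicates of a group differed by a chi-square per degree of freedom of at least 12.1, so none was counted as a copy. The X. laevis ranges of r within a pair and across batches of the same female overlapped. X. laevis p-values measure the spread between 4 pairs from 2 females, and the titles do not say whether the pairs of a female are separate oocyte samples. The scripts were tested on simulated data.

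The members, the gene lists and the alternatives were chosen with earlier results of these data known. Named genes were all ZP models, up to the 4 called members of each other list with the lowest adjusted p, and the 3 models nearest to each member whose mean level reached 5 CPM in both species. The oocyte markers figla, zar1, gdf9 and gtf3a were named besides.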

Additional observations from a re-analysis of the deposited data

Results flagged for a closer look

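The zp3 hemisphere difference was flagged because it differed between the species. Its log2 vegetal minus animal value was larger in X. tropicalis by 1.19 (edgeR adjusted p = 0.00311, 0.139 without the blocks), and all 4 X. laevis batches (-0.09 to 0.56) were below both X. tropicalis females (1.29 and 1.47).

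The animal library of batch A_t1 was flagged for zpd. It held 279 CPM against 231 to 239 CPM in the other 3 X. laevis animal libraries, a gap of 0.839 of the group's range. Chance flags about 1 in 20 groups, and 16 groups of 4 libraries were checked.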

How the results depend on the processing

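Calls of the members, counted as vegetal minus animal, numbered 2 in X. laevis, 3 in X. tropicalis, 1 for the species difference (zp3) and, as higher in A minus higher in B, -1 for the females (zp3). They were the same under size-factor scaling, library totals and no filter, and, where run, with DESeq2, a mean of at least 5 CPM and each X. laevis batch left out. With female A alone X. laevis had 1 (zp4 lost). With no replicate block X. laevis kept 2, X. tropicalis had 2 and the species difference 0. With 1 X. tropicalis library also left out, and the lone library assumed to vary like the others, the count ran from 0 (without the vegetal library of female 1) to 2, with 1 without that of female 2. With no replicate block, calls over all models went from 4017 to 2029 in X. laevis, from 4256 to 262 in X. tropicalis and from 1457 to 458 for the species difference. They were 1711 and 2614 in X. laevis without A_t2 and without B_t2, 2631 and 2013 in female A and B alone, 872 for the species difference without A_t2, 2108 in X. tropicalis with DESeq2 (and 126 to 598 without 1 library and the block), and 1495, against 4639, between females in vegetal libraries alone. The zpy1 call in X. laevis was lost with library totals (adjusted p = 0.0709, edgeR), without A_t2 (0.158) and without B_t2 (0.101).

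Signs changed for uncalled values near 0, and for pcsk7 and lhx8. For the species difference, zp3.2 was -0.0093 with size factors, -0.013 with no filter, -0.0070 at 5 CPM, and from -0.094 to 0.088 leaving out 1 batch, where zpy1 ran from -0.050 to 0.016. In X. laevis, zpax ran from -0.051 to 0.026 leaving out 1 batch. With A_t1 and B_t2 alone, batches chosen after seeing the data, zp3.2 was -0.010, zpax 0.045 and zpd 0.024. Between females, zp2 ran from -0.080 to 0.060 leaving out 1 batch and was 3.11e-05 in vegetal libraries alone. With no block and 1 X. tropicalis library left out, pcsk7 was 0.054 (without the animal library of female 1), zpd -0.016 (without the vegetal one of female 1) and lhx8 -0.053 (without the vegetal one of female 2). The cause was not tested. Depth gave each member at least 1975 counts per library, and the 2 pairs limit X. tropicalis.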
